A study of Arabidopsis thaliana with 15 samples.

Results

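The genes described here encode 9 enzymes that turn tryptophan into the indole defence compounds of Arabidopsis thaliana. They are CYP79B2, CYP79B3, CYP83B1, SUR1, CYP81F2, CYP71A12, CYP71A13, PAD3 and CYP82C2, and they were taken by locus from a table of 32548 genes. All 9 passed the filter on low values that 25085 genes of the table passed. SUR1 is a carbon-sulphur lyase and the other 8 genes encode cytochromes P450.

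RNA was sequenced from seedlings aged 11 days, all in the Col-0 background, on Murashige and Skoog plates at 22 °C with 16 h of light and 8 h of dark. There were 15 libraries, 3 in each of 5 groups, of which Col-0_1 and Col-0_2 were wild-type sets. In wrky-qm, the labels give homozygous mutations of WRKY7, WRKY11, WRKY17, WRKY21 and WRKY39, all genes for WRKY transcription factors. The group wrky-qm_15_hz carried the same 5 mutations and was heterozygous for a mutation of WRKY15. Seedlings of obe1-2 were homozygous for mutations of both OBE1 and OBE2, which encode nuclear proteins with a PHD finger. Neither wild-type set is tied to a mutant by the labels, so every mutant was set against both. A gene was called higher or lower where limma found it so against both sets at an adjusted p under 0.05. Nothing in the labels says that replicates came from separate cultures, so p-values here reflect how far such libraries vary, and that variation could be technical only.

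The mutated genes check the labels in part. OBE1 averaged 11.1 ± 4.66 (SD, n = 3) normalised reads in obe1-2, beside wild-type averages of 2194 ± 161 and 2546 ± 109. OBE2 was called lower there too, at 1811 ± 75.8 against wild-type averages of 3813 ± 111 and 4279 ± 128. WRKY17 and WRKY39 were called lower in both WRKY mutants. WRKY17 averaged 184 ± 19.4 in wrky-qm and 411 ± 56.5 in wrky-qm_15_hz, against wild-type averages of 1028 ± 94.9 and 849 ± 33.3. WRKY39 averaged 999.5 ± 36.7 in wrky-qm and 820 ± 49.8 in wrky-qm_15_hz, against 1466 ± 34.8 and 1426 ± 76.5. Transcripts of WRKY7, WRKY11 and WRKY15 were higher in both WRKY mutants. WRKY21 was lower in wrky-qm, at 626 ± 64.5 against wild-type averages of 966 ± 9.15 and 947 ± 24.2, but not called in wrky-qm_15_hz, at 887 ± 81.4, although both are labelled with the same mutation. Levels therefore do not check the mutations of WRKY7, WRKY11, WRKY15 and, in wrky-qm_15_hz, WRKY21. The falls of OBE2, WRKY17, WRKY39 and, in wrky-qm, WRKY21 were partial, so they check those mutations only in part. Every direction given is for the libraries as labelled.

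In this pathway CYP79B2 and CYP79B3 make indole acetaldoxime from tryptophan, and every branch below starts from that aldoxime. CYP83B1 and then SUR1 lead it into indole glucosinolates, sulphur-rich glucosides that CYP81F2 hydroxylates on the indole ring. CYP71A12 and CYP71A13 dehydrate the aldoxime to indole acetonitrile, from which PAD3 closes the last steps to camalexin, the main phytoalexin of the species. CYP82C2 hydroxylates indole carbonyl nitrile, a cyanogenic product of the CYP71A12 route. These compounds are known for their role in defence against fungi and bacteria, and several of the genes are known targets of the transcription factor WRKY33.

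WRKY proteins bind a DNA element called the W-box, so the sequence just before the gene is shown for the 2 members with the most full W-boxes and for PAD3, which has none. Each is the 250 bases before the annotated gene start, 5′ to 3′ on the coding strand, from RefSeq's TAIR10.1 assembly. Capitals mark the W-box core TTGAC, or GTCAA where it lies on the opposite strand. All 3 genes lie on the plus strand, CYP81F2 with the window chr5:23187590-23187839, CYP82C2 with chr4:15462100-15462349 and PAD3 with chr3:9887667-9887916.
CYP81F2: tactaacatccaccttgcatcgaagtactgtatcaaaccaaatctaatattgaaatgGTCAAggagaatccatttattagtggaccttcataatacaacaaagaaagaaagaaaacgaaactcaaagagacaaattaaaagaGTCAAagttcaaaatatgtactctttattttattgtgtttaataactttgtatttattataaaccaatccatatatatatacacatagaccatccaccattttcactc
CYP82C2: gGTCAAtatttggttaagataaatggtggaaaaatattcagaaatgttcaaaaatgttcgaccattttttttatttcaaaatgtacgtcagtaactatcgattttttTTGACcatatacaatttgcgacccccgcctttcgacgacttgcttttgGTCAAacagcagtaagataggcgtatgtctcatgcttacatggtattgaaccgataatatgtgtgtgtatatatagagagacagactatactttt
PAD3: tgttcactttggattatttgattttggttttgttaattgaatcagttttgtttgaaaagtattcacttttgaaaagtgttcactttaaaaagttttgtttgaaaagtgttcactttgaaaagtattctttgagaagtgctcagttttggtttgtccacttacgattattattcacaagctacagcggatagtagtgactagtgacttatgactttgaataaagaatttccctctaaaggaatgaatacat
CYP82C2 has 3 cores, CYP81F2 has 2 and PAD3 has none in this window. Counted on both strands from 250 bases before to 50 bases after the start, 6 of the 9 genes hold at least 1 core, against 50.5% of 27443 promoters of the genome. The full W-box, TTGACC or TTGACT, which contains the core, stands in 3 of 9 (CYP82C2, CYP81F2 and SUR1), against 32.4% of promoters. CYP82C2 holds 3 of these and CYP81F2 holds 2, where 1.48% of promoters hold 3 or more and 7.7% hold 2 or more. The single core of CYP83B1 lies after its start. CYP71A12 and CYP71A13 hold 2 cores each and no full W-box, in windows measured from the start codon because their RefSeq models begin there. CYP79B2 and CYP79B3 hold neither. The G-box CACGTG was found before SUR1 alone, and the GCC box GCCGCC before none of the 9, against 7.68% and 2.57% of promoters. A match of letters is a description and shows no binding.

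The aldoxime-forming pair is shown next because their transcripts moved in opposite directions in wrky-qm_15_hz and obe1-2. Some of the sequence before both genes is the same. Capitals here mark runs of at least 15 bases found before both genes, again on the plus strand, in chr4:18524792-18525041 for CYP79B2 and chr2:9488163-9488412 for CYP79B3.
CYP79B2: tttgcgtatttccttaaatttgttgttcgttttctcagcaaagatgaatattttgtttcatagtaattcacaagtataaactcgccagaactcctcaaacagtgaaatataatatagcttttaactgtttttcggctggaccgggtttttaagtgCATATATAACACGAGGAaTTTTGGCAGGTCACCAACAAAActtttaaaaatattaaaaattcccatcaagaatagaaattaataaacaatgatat
CYP79B3: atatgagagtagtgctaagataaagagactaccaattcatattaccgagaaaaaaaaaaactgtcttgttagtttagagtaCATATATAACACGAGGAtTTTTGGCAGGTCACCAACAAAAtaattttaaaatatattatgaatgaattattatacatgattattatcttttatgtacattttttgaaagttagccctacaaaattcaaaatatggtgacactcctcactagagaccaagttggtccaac
The pair shares 2 such runs of 39 bases in all, the longer of 22 bases. The first run begins 95 bases before the start of CYP79B2 and 169 bases before that of CYP79B3.

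Transcripts of 8 of the 9 enzymes were higher in obe1-2 than in both wild-type sets and 7 of 9 were higher in wrky-qm_15_hz, while wrky-qm had 2 higher and 2 lower. CYP79B3 was higher in wrky-qm and lower in both other mutants. The background of these counts was wide. Among the 25085 genes tested, 29.2% were called higher and 32.5% lower in obe1-2, 26.5% and 27.4% in wrky-qm_15_hz, and 15.5% and 11.4% in wrky-qm. In wrky-qm that made 57.6% of calls higher, but 42.4% under quantile normalisation. The share of members called higher lay above that background in obe1-2 and wrky-qm_15_hz, and in wrky-qm the counts were too small to set apart from it. The members were chosen with earlier results of these data known, so this share is a description only. The obe1-2 count includes SUR1, which was not called under quantile normalisation. The median log2 fold change of the members was 3.06 in obe1-2, 1.80 in wrky-qm_15_hz and -0.04 in wrky-qm, beside -0.08, -0.04 and 0 over all genes tested. Since these are whole seedlings, more RNA per cell and more cells that express a gene cannot be told apart.

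**Figure D1:**
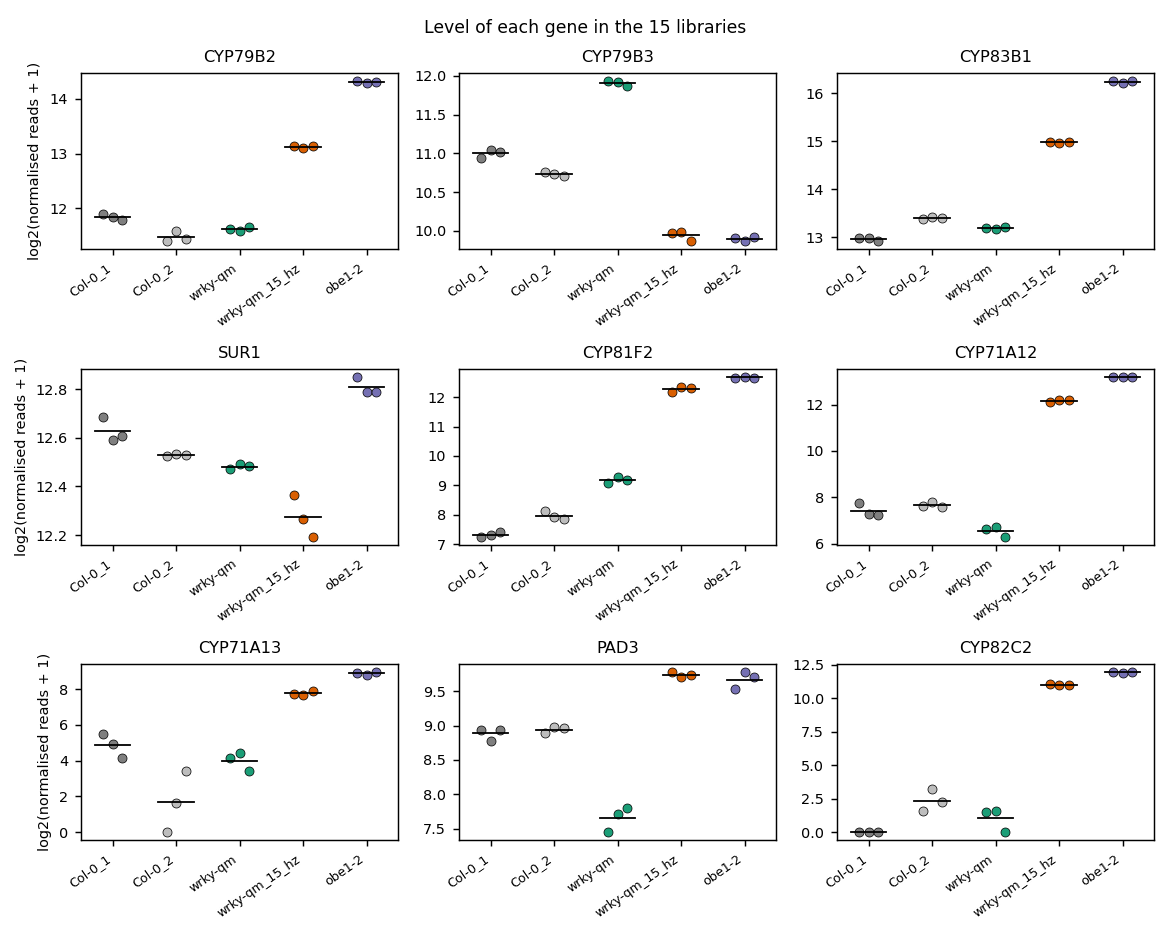
Level of each of the 9 genes in the 15 libraries, as log2(normalised reads + 1) on the vertical axis, with 1 point per library, the groups along the horizontal axis and a line at each group's mean; the vertical scale differs between panels. In 7 panels (CYP79B2, CYP83B1, CYP81F2, CYP71A12, CYP71A13, PAD3 and CYP82C2) the groups wrky-qm_15_hz and obe1-2 stand above the other 3, while CYP79B3 is highest in wrky-qm.

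CYP79B2 (AT4G39950, chromosome 4, 18525042 to 18527602, plus strand, 3 coding exons) catalyses the entry step. Its level was 3821, 3678 and 3536 normalised reads in Col-0_1 and 2717, 3100.3 and 2780.3 in Col-0_2. It stood at 3141, 3066 and 3243 in wrky-qm, at 8992, 8796 and 9045 in wrky-qm_15_hz and at 20429, 19910.5 and 20293 in obe1-2. The libraries of wrky-qm lay among the wild-type ones, and those of both other mutants lay above all of them without overlap. CYP79B2 rose by 1.46 ± 0.040 (log2 fold change ± SE) in wrky-qm_15_hz and by 2.64 ± 0.040 in obe1-2, with limma adjusted p of 8.24e-16 and 6.43e-21, a 2.73-fold and a 6.18-fold difference of means. In wrky-qm its log2 fold change was -0.04 ± 0.040 and it was not called (limma adjusted p = 1, since the directions against the 2 wild-type sets differed).

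CYP79B3 (AT2G22330, chromosome 2, 9488413 to 9491404, plus strand, 2 coding exons) encodes the second enzyme of the same reaction. The wild-type levels were 1969.5, 2101 and 2066 in Col-0_1 and 1734, 1699.7 and 1675 in Col-0_2. Against these, wrky-qm had 3904, 3865 and 3728, wrky-qm_15_hz had 1007, 1008 and 937, and obe1-2 had 962, 933 and 964. Every wrky-qm library was above the wild-type range and every library of the other mutants was below it. CYP79B3 rose by 1.04 ± 0.042 in wrky-qm (limma adjusted p = 2.65e-12), and its log2 fold change was -0.92 ± 0.042 in wrky-qm_15_hz and -0.97 ± 0.042 in obe1-2 (limma adjusted p = 9.24e-12 and 1.92e-12). It was the only one of the 9 genes called lower in obe1-2, and 1 of 2 called lower in wrky-qm_15_hz.

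Per kilobase of coding sequence, so that the pair can be compared, the level of CYP79B2 was 1.67 to 1.89 times that of CYP79B3 in Col-0_1 and 1.53 to 1.78 times in Col-0_2. In wrky-qm the ratio was 0.773 to 0.847, with CYP79B3 the higher of the pair. It reached 8.50 to 9.40 in wrky-qm_15_hz and 20.5 to 20.8 in obe1-2. The summed level of both genes was 2576 to 3346 normalised reads per kilobase over the 6 wild-type libraries. It was 4028 to 4094 in wrky-qm, 5630.3 to 5742 in wrky-qm_15_hz and 11952 to 12266 in obe1-2. Their coding sequences are 80.9% identical with no shared stretch longer than 32 bases, and none of the 1597 windows of 150 bases in CYP79B2 occurs in CYP79B3.

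**Figure D2:**
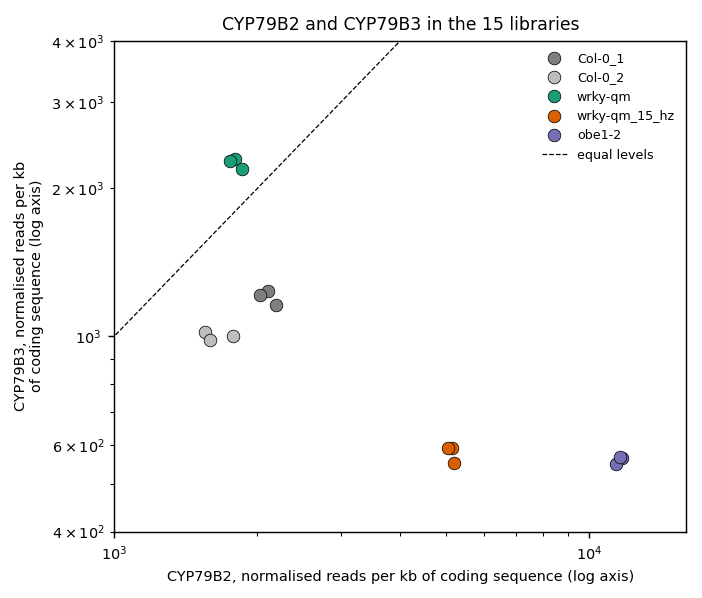
CYP79B2 on the horizontal axis and CYP79B3 on the vertical axis, in normalised reads per kilobase of coding sequence, both axes logarithmic, with 1 point per library and a dashed line where the levels are equal. Only the 3 wrky-qm libraries lie above the line, and wrky-qm_15_hz and obe1-2 lie far to its right, at ratios of 8.50 to 9.40 and 20.5 to 20.8.

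CYP83B1 (AT4G31500, chromosome 4, 15273410 to 15275404, minus strand, 2 coding exons) oxidises the aldoxime on the way to indole glucosinolates. It had the highest level per kilobase of the 9 genes in all 5 groups. Its normalised reads were 8056, 8040.1 and 7754 in Col-0_1, 10592, 10957 and 10800.1 in Col-0_2, with 9338, 9236 and 9437 in wrky-qm. They reached 32297, 32117 and 32367 in wrky-qm_15_hz and 77822, 75680 and 77923 in obe1-2. The wrky-qm libraries lay between the wild-type sets, which did not overlap each other. CYP83B1 rose by 1.80 ± 0.029 in wrky-qm_15_hz and by 3.06 ± 0.029 in obe1-2, with limma adjusted p of 1.19e-19 and 4.37e-24, a 3.44-fold and an 8.24-fold difference of means. In wrky-qm its log2 fold change was 0.01 ± 0.029, not called.

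SUR1 (AT2G20610, chromosome 2, 8877887 to 8880440, minus strand, 7 coding exons) releases the thiol in the glucosinolate core pathway and serves the aliphatic as well as the indole branch. Its levels were 6594, 6172 and 6234 in Col-0_1, 5892, 5937 and 5909 in Col-0_2, with 5678, 5755 and 5729 in wrky-qm. In wrky-qm_15_hz they were 5268, 4931 and 4684, and in obe1-2 they were 7393, 7079 and 7073. No 2 of the 5 groups overlapped, yet the whole span from the lowest to the highest library was small beside that of the other genes. SUR1 was lower in wrky-qm_15_hz, with a log2 fold change of -0.30 ± 0.037 (limma adjusted p = 2.51e-05). It was called higher in obe1-2, by 0.23 ± 0.037 (limma adjusted p = 0.000758), but under quantile normalisation that value turned to -0.041 and was not called. In wrky-qm the log2 fold change was -0.10 ± 0.037 (limma adjusted p = 0.562), not called.

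CYP81F2 (AT5G57220, chromosome 5, 23187840 to 23189902, plus strand, 3 coding exons) modifies indole glucosinolates to the forms needed for callose deposition. It was the one enzyme apart from CYP79B3 called higher in wrky-qm. Its levels were 152, 157 and 169 in Col-0_1, 276, 242 and 228 in Col-0_2, with 545, 623 and 576 in wrky-qm. They were 4652, 5256 and 5123 in wrky-qm_15_hz and 6463, 6645 and 6486 in obe1-2. The 5 groups did not overlap and stood in that order. CYP81F2 rose by 1.54 ± 0.066 in wrky-qm, by 4.65 ± 0.066 in wrky-qm_15_hz and by 5.03 ± 0.066 in obe1-2 (limma adjusted p = 2.74e-11, 5.29e-21 and 5.89e-22). As ratios of means these are 2.85-fold, 24.6-fold and 32.02-fold.

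Its 3 nearest relatives behaved otherwise. CYP81F3 and CYP81F4, which hydroxylate and so prepare the same glucosinolates for methylation, were lower in obe1-2 by log2 fold changes of -2.47 ± 0.21 and -4.25 ± 0.29, and lower in wrky-qm_15_hz by -1.71 ± 0.21 and -3.70 ± 0.29 (largest limma adjusted p of the 4 = 7.56e-06). CYP81F1 was listed at 0 in all 15 libraries. Coding identity with CYP81F2 was 70.7% for CYP81F1, 72.4% for CYP81F3 and 70.1% for CYP81F4, with no shared stretch longer than 20 bases.

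CYP71A12 (AT2G30750, chromosome 2, 13099486 to 13101371, minus strand, 4 coding exons) showed a fall in one mutant and large rises in the others. Its levels were 212, 155 and 148 in Col-0_1 and 194, 222 and 189 in Col-0_2. In wrky-qm they were 97.1, 105 and 78.0, below all wild-type libraries. They reached 4421, 4735 and 4686 in wrky-qm_15_hz and 9426, 9305 and 9463 in obe1-2. The log2 fold change was -0.99 ± 0.10 in wrky-qm, against 4.64 ± 0.10 in wrky-qm_15_hz and 5.66 ± 0.10 in obe1-2 (limma adjusted p = 4.84e-06, 3.43e-18 and 5.10e-20). The ratio of means was 24.7 in wrky-qm_15_hz and 50.3 in obe1-2.

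CYP71A13 (AT2G30770, chromosome 2, 13109909 to 13111988, minus strand, 4 coding exons) is the paralogue that carries most camalexin synthesis in leaves. Its coding sequence is as long as that of CYP71A12, and its level was lower in every library. Its levels were 43.1, 29.5 and 16.9 in Col-0_1, 0, 2.05 and 9.48 in Col-0_2, with 16.8, 20.4 and 9.56 in wrky-qm. They were 206, 203 and 236 in wrky-qm_15_hz and 481, 448 and 489 in obe1-2, well above the other groups and without overlap. CYP71A13 rose by 4.5 ± 0.48 in wrky-qm_15_hz and by 5.63 ± 0.48 in obe1-2 (limma adjusted p = 0.000126 and 1.49e-06). The size depends on the wild-type set. Against Col-0_1 the log2 fold changes were 2.90 and 4.04, and against Col-0_2 they were 6.09 and 7.22. In wrky-qm its log2 fold change was 0.73 ± 0.48 against the mean of both sets, -0.86 against Col-0_1 and 2.33 against Col-0_2, and it was not called (limma adjusted p = 1).

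The 2 paralogues lie 8537 bases apart on the same strand, and their coding sequences are 90.4% identical. The longest stretch they share is 59 bases and none of the 1345 windows of 150 bases in CYP71A12 occurs in CYP71A13, but how reads that match both were counted is not given in the sources used here. Their separate values are therefore uncertain to that extent. In normalised reads per kilobase of coding sequence, CYP71A12 made up 95.2% to 95.9% of their sum in wrky-qm_15_hz and 95.1% to 95.4% in obe1-2. The share was 83.1% to 89.8% in Col-0_1 and 83.8% to 89.1% in wrky-qm, but 95.2% to 100% in Col-0_2. The wild-type sets thus differed and one of them reached the share of these mutants. That Col-0_2 share rests on CYP71A13 levels of 0, 2.05 and 9.48 normalised reads, so it is uncertain. Another close copy, CYP71A18, 89.8% identical to CYP71A12, was listed at 0 in every library of 4 groups and averaged 1.91 ± 1.73 (SD, n = 3) normalised reads in wrky-qm_15_hz.

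PAD3 (AT3G26830, chromosome 3, 9887917 to 9889791, plus strand, 2 coding exons) encodes the last enzyme of camalexin synthesis. It fell in wrky-qm and rose in the other mutants, there by less than CYP71A12 and CYP71A13. Its levels were 490.2, 438 and 489 in Col-0_1 and 475, 501 and 497 in Col-0_2. They were 174, 208 and 221 in wrky-qm, 875, 836 and 850.03 in wrky-qm_15_hz and 739, 876 and 834 in obe1-2. The wild-type sets overlapped, all wrky-qm libraries were below them, and all libraries of both other mutants were above. PAD3 fell by 1.26 ± 0.084 on the log2 scale in wrky-qm (limma adjusted p = 1.42e-09). It rose by 0.83 ± 0.084 in wrky-qm_15_hz and by 0.76 ± 0.084 in obe1-2 (limma adjusted p = 4.26e-07 and 1.02e-06), a 1.77-fold and a 1.69-fold difference of means.

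CYP82C2 (AT4G31970, chromosome 4, 15462350 to 15464563, plus strand, 3 coding exons) was close to silent in 3 groups. It was listed at 0 in all 3 Col-0_1 libraries, at 2.00, 8.11 and 3.66 in Col-0_2 and at 1.88, 2.04 and 0 in wrky-qm. In wrky-qm_15_hz it reached 2095, 2034 and 2021, and in obe1-2 it reached 3923, 3893 and 3940. Both mutants were called higher (limma adjusted p = 1.14e-13 and 9.71e-15), and no fold is given because a wild-type set is at 0. The group wrky-qm was not called (limma adjusted p = 1).

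Of the close copies of CYP82C2, CYP82C3 was also highest in wrky-qm_15_hz and obe1-2, and CYP82C4 followed another pattern. CYP82C3, which is 93.1% identical to CYP82C2 in coding sequence and lies 5228 bases away, averaged 18.0 ± 8.98 (SD, n = 3) normalised reads in wrky-qm_15_hz and 15.4 ± 2.59 in obe1-2, against 1.55 ± 1.42 and 0.674 ± 1.17 in the wild-type sets. In wrky-qm CYP82C3 averaged 5.80 ± 3.35 and was not called, so it lay between, unlike CYP82C2, and all its levels were low. CYP82C4, 93.0% identical and known for hydroxylating an iron-mobilising coumarin, averaged 202 ± 13.0 in Col-0_1 and 57.1 ± 1.04 in Col-0_2. It stood at 866 ± 27.05 in wrky-qm, at 7.57 ± 2.21 in wrky-qm_15_hz and at 411 ± 30.5 in obe1-2. Its calls were higher in wrky-qm and obe1-2 and lower in wrky-qm_15_hz (limma adjusted p = 2.30e-08, 0.000108 and 7.85e-11). Neither copy shares a window of 150 bases with CYP82C2, and the split of reads among the 3 is subject to the same limit as above.

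**Figure D3:**
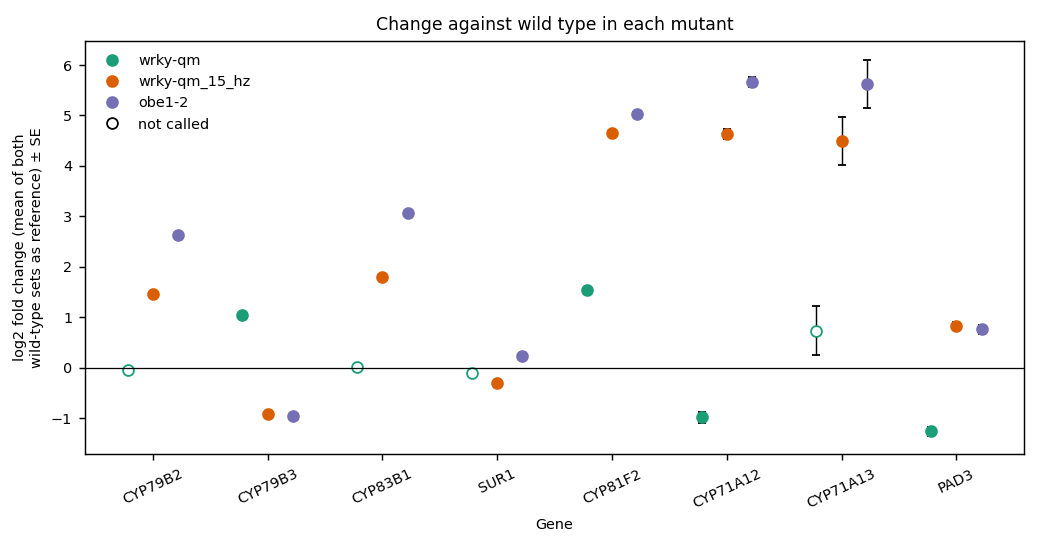
Log2 fold change of 8 of the 9 genes in each mutant relative to the averaged wild-type sets, with bars of 1 SE from limma; open points were not called. CYP82C2 is left out because Col-0_1 is at 0. CYP79B3 is the gene with a rise in wrky-qm (1.04) and falls in the other mutants (-0.92 and -0.97), PAD3 and CYP71A12 show the opposite signs, and the small SUR1 rise in obe1-2 turns to -0.041 under quantile normalisation.

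The mutants were also set against each other directly. In wrky-qm_15_hz against wrky-qm, which differ in the labels by the WRKY15 mutation, 7 of 9 genes were higher and 2 lower, where 29.5% of all genes were higher and 34.9% lower. The rises ran from 1.51 ± 0.046 for CYP79B2 to 5.62 ± 0.12 for CYP71A12 on the log2 scale, leaving out CYP82C2, which is at 0 in 1 wrky-qm library. CYP79B3 fell by 1.96 ± 0.049 and SUR1 had a log2 fold change of -0.21 ± 0.042 (largest limma adjusted p of the 9 = 0.00022). PAD3 rose by 2.09 ± 0.097, which takes it from below to above the wild-type range. Zeros are stored differently in wrky-qm and wrky-qm_15_hz, and likewise in the wild-type sets, which differed in 6 of the 9 genes. A difference between sets of libraries therefore cannot be told apart here from the labelled mutation.

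In obe1-2 against wrky-qm 8 genes were higher and 1 lower, where 31.1% of all genes were higher and 38.9% lower. CYP79B3 was the lower gene, with a log2 fold change of -2.01 ± 0.049, and the rises ran from 0.33 ± 0.042 for SUR1 to 6.65 ± 0.12 for CYP71A12, again without CYP82C2 (largest limma adjusted p of the 9 = 5.63e-07). This comparison and the one before it share the wrky-qm libraries and the same limit on sets of libraries.

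In obe1-2 against wrky-qm_15_hz 5 genes were higher and none lower, where 20.3% of all genes were higher and 26.1% lower. CYP83B1 was higher by 1.26 ± 0.034, CYP79B2 by 1.18 ± 0.046, CYP71A12 by 1.03 ± 0.12, SUR1 by 0.53 ± 0.042 and CYP81F2 by 0.38 ± 0.076 (largest limma adjusted p of the 5 = 0.000275). CYP71A13 at 1.13 ± 0.55 and CYP82C2 at 0.93 ± 0.41 were not called (limma adjusted p = 0.103 and 0.0715), although in both genes every obe1-2 library was above every wrky-qm_15_hz library. The shared estimate of spread for these genes includes the wild-type libraries near 0. Fitted on their own libraries, both were called (limma adjusted p = 3.77e-06 and 2.79e-09). CYP79B3 and PAD3 had differences of -0.05 ± 0.049 and -0.07 ± 0.097 and their ranges overlapped (limma adjusted p = 0.490 and 0.615).

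The wild-type sets differed from each other in 6 of the 9 genes, where 13.7% of all genes were higher and 9.52% lower in Col-0_2. CYP83B1, CYP81F2 and CYP82C2 were higher in Col-0_2, the first 2 by 0.44 ± 0.034 and 0.64 ± 0.076. CYP79B2, CYP79B3 and CYP71A13 were lower, with log2 differences of -0.36 ± 0.046, -0.26 ± 0.049 and -3.18 ± 0.55 (largest limma adjusted p of the 6 = 0.000349). The CYP71A13 difference was -2.35 without the Col-0_2 library at 0 and -4.05 without the highest Col-0_2 library. With Col-0_1 alone as the control 7 of the 9 genes were called in wrky-qm, and with Col-0_2 alone 8 were, against 4 when both were required. In the 2 other mutants the choice of set changed the call of none of the 9 genes.

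Other genes of the pathway were counted from lists drawn from textbook knowledge with earlier results of these data in view. Of 52 tested, 38 were higher and 12 lower in obe1-2, 34 and 13 in wrky-qm_15_hz, and 17 and 7 in wrky-qm. Over all genes tested, 29.2% were higher and 32.5% lower in obe1-2, 26.5% and 27.4% in wrky-qm_15_hz, and 15.5% and 11.4% in wrky-qm. These shares are the background for each list below, and whether a list departs from them was not tested. Upstream, 7 of 8 genes of tryptophan synthesis were higher in obe1-2 and 1 was lower, with a median log2 fold change of 1.97. TSA1, the alpha subunit of tryptophan synthase, rose by 2.58 ± 0.055 there and ASA1, the feedback-regulated subunit of anthranilate synthase, by 2.26 ± 0.043. In wrky-qm_15_hz 7 were higher and none lower, with a median of 1.09, and TSA1 and ASA1 rose by 1.48 ± 0.055 and 1.35 ± 0.043. In wrky-qm 4 were higher and 2 lower, a count of 6 that fell to 2 without wrky-qm replicate 1. Under quantile normalisation ASB1 and TSB2 lost their calls there, and PAT1 (AT5G17990) and TSA1 were called lower. ASA1 rose there by 0.69 ± 0.043.

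Among 5 further genes of the indole glucosinolate core, all were higher in obe1-2, 3 were higher and 1 lower in wrky-qm_15_hz, and 1 was higher in wrky-qm. GSTF10, a glutathione transferase placed in the conjugation step, rose by 2.07 ± 0.045 in obe1-2 and 1.18 ± 0.045 in wrky-qm_15_hz. SOT16, the sulphotransferase of the last core step, rose by 1.89 ± 0.039 and 0.84 ± 0.039, and GGP1, a gamma-glutamyl peptidase, by 1.34 ± 0.039 and 0.72 ± 0.039. In wrky-qm GGP1 was the gene called, at 0.34 ± 0.039, and a second gene was called without obe1-2 replicate 3.

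The modification list, CYP81F1, CYP81F3, CYP81F4 and the IGMT methyltransferases, had 4 higher and 3 lower of 7 tested in both wrky-qm_15_hz and obe1-2, and 2 higher in wrky-qm. IGMT1 rose by 2.35 ± 0.075 in obe1-2, 1.78 ± 0.075 in wrky-qm_15_hz and 0.91 ± 0.075 in wrky-qm. IGMT4 rose by 1.09 ± 0.032 in wrky-qm. In obe1-2 IGMT4 was no longer called under quantile normalisation (0.49, limma adjusted p = 0.146), which left 6 of the 7 called. How reads that match several IGMT genes were counted is not given in the sources used here.

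Genes that break glucosinolates down were split. PEN2, the glucosidase that acts on the products of CYP81F2 in pathogen defence, rose in every mutant, by 2.26 ± 0.033 in obe1-2, 1.84 ± 0.033 in wrky-qm_15_hz and 0.76 ± 0.033 in wrky-qm. The 4 TGG myrosinases fell in wrky-qm_15_hz and obe1-2. TGG2 had log2 fold changes of -2.03 ± 0.048 in wrky-qm_15_hz and -6.00 ± 0.048 in obe1-2, and the root myrosinases TGG4 and TGG5 were listed at 0 in all obe1-2 libraries, against means of 597 to 896 and 619 to 881 in the wild-type sets. In wrky-qm TGG4 fell by 3.37 ± 0.22. Of the 6 genes, 2 (PEN2 and PYK10) were higher and 4 lower in both wrky-qm_15_hz and obe1-2. In wrky-qm 1 was higher and 2 were lower, among them PYK10 at -0.43. Under quantile normalisation PYK10 was not called there (-0.37, limma adjusted p = 0.0524) and TGG1 was called higher (0.19, limma adjusted p = 0.0288).

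The list of partners of the camalexin and indole carbonyl nitrile enzymes held GSTF6, CYP71B6 and FOX1, which rose in wrky-qm_15_hz and obe1-2. It also held CYP71A18, CYP82C3 and CYP82C4, which are close copies of members rather than partners. In obe1-2 5 of 6 were higher, CYP82C3 and CYP82C4 among them, and none lower, with a median of 2.77. In wrky-qm_15_hz 4 were higher, CYP82C3 among them, and 1, CYP82C4, lower, with a median of 2.61. FOX1, the oxidase that makes indole carbonyl nitrile before CYP82C2 acts, averaged 48.8 ± 6.37 and 44.8 ± 14.9 (SD, n = 3) normalised reads in the wild-type sets and 39.2 ± 22.6 in wrky-qm. It reached 1006 ± 9.17 in wrky-qm_15_hz and 1159 ± 48.05 in obe1-2, rises of 4.43 ± 0.25 and 4.63 ± 0.25. GSTF6, a transferase linked to camalexin synthesis, rose by 4.23 ± 0.047 and 4.44 ± 0.047. In wrky-qm 2 of the 6 were higher, CYP71B6 by 0.21 ± 0.040 and CYP82C4 by 3.0 ± 0.17 (largest limma adjusted p of these calls = 0.00145). CYP71B6 was not called under quantile normalisation (0.11, limma adjusted p = 0.0856), which left 1 of 6.

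Of 6 known activators of these enzymes, 3 were higher in wrky-qm and none lower, and 4 were higher and 1 lower in each of the other mutants. WRKY33 averaged 593 ± 36.7 and 1353 ± 37.05 in the wild-type sets, 3843 ± 71.4 in wrky-qm, with 4259.9 ± 109 in wrky-qm_15_hz and 4840 ± 174 in obe1-2, rises of 2.1 ± 0.043, 2.25 ± 0.043 and 2.43 ± 0.043. In the same wrky-qm libraries CYP71A12 and PAD3 were called lower. MYB51, an activator of indole glucosinolate genes, rose by 1.99 ± 0.053, 2.51 ± 0.053 and 2.70 ± 0.053. MYB34, its relative, followed CYP79B3 in direction, with 0.81 ± 0.061 in wrky-qm against -1.22 ± 0.061 in wrky-qm_15_hz and -0.42 ± 0.061 in obe1-2.

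Transport genes were higher in 3, 4 and 5 of 5 cases in wrky-qm, wrky-qm_15_hz and obe1-2, with none lower. GTR1 and GTR2, importers of glucosinolates into cells, rose by 2.04 ± 0.047 and 0.39 ± 0.032 in wrky-qm, 1.35 ± 0.047 and 2.03 ± 0.032 in wrky-qm_15_hz, and 1.98 ± 0.047 and 2.95 ± 0.032 in obe1-2. ABCG36, an exporter of indole compounds at sites of attack, rose by 0.91 ± 0.038, 1.77 ± 0.038 and 2.03 ± 0.038. All 6 genes of the nitrilase and auxin branch were higher in both wrky-qm_15_hz and obe1-2, among them NIT2 by 4.66 ± 0.048 and 4.25 ± 0.048, while wrky-qm had 1 higher and 2 lower. Under quantile normalisation 5 and 4 of the 6 were called.

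The aliphatic counterparts of the first enzymes were lower in wrky-qm_15_hz and obe1-2, as was CYP79B3, while CYP79B2 and CYP83B1 were higher there. CYP79F1, CYP79F2 and CYP83A1 stand where CYP79B2, CYP79B3 and CYP83B1 stand in the indole branch. All 3 were lower in wrky-qm_15_hz, by log2 fold changes of -3.68 ± 0.060, -2.27 ± 0.088 and -1.68 ± 0.047, and in obe1-2, by -3.66 ± 0.060, -2.59 ± 0.088 and -1.74 ± 0.047. In wrky-qm CYP79F2 alone was called, at -1.02 ± 0.088.

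**Figure D4:**
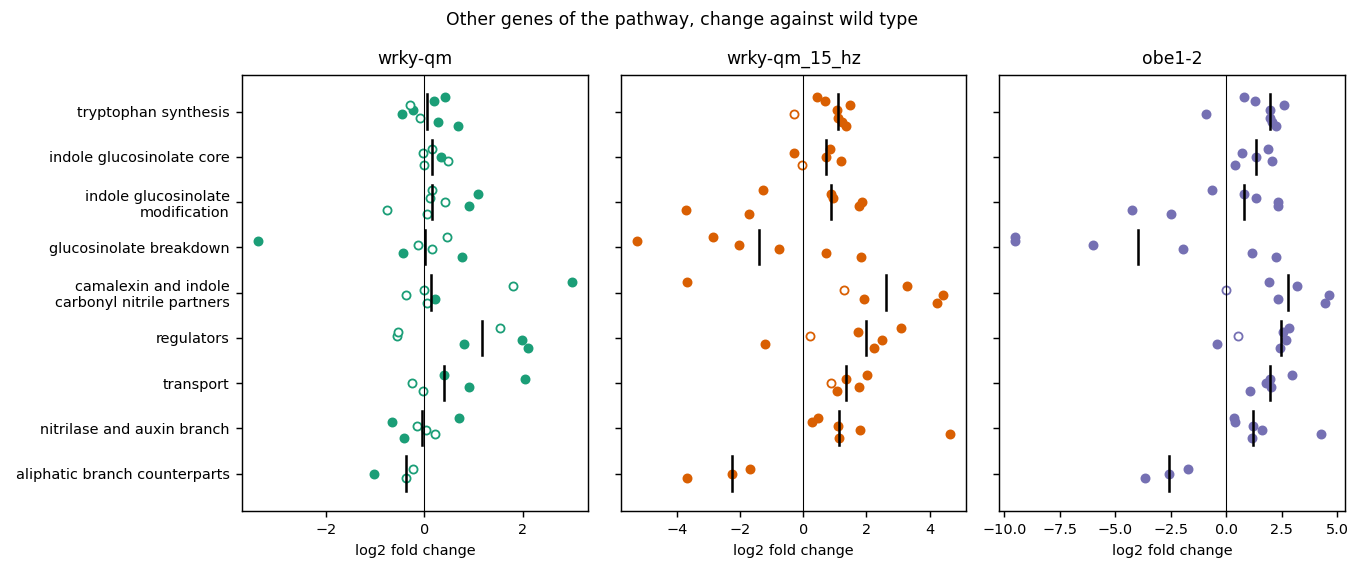
Log2 fold change of the other genes of the pathway relative to the averaged wild-type sets, 1 panel per mutant, 1 point per gene and a bar at each list's median; open points were not called and the horizontal scale differs between panels. In wrky-qm_15_hz and obe1-2 the medians of 7 of the 9 lists lie above 0, while those of the breakdown list and the aliphatic counterparts lie below, and the leftmost obe1-2 points are TGG4 and TGG5, which are at 0 there.

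Across the 15 libraries the members did not all follow one pattern. Pearson's r between log2 levels was 0.98 for CYP79B2 with CYP83B1 and 0.98 for CYP71A12 with CYP82C2. PAD3 and CYP79B3 ran opposite to each other (r = -0.98). SUR1 stayed between -0.09 and 0.33 with all others. These values are descriptions over 15 libraries of 5 groups, so they mostly compare group means.

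**Figure D5:**
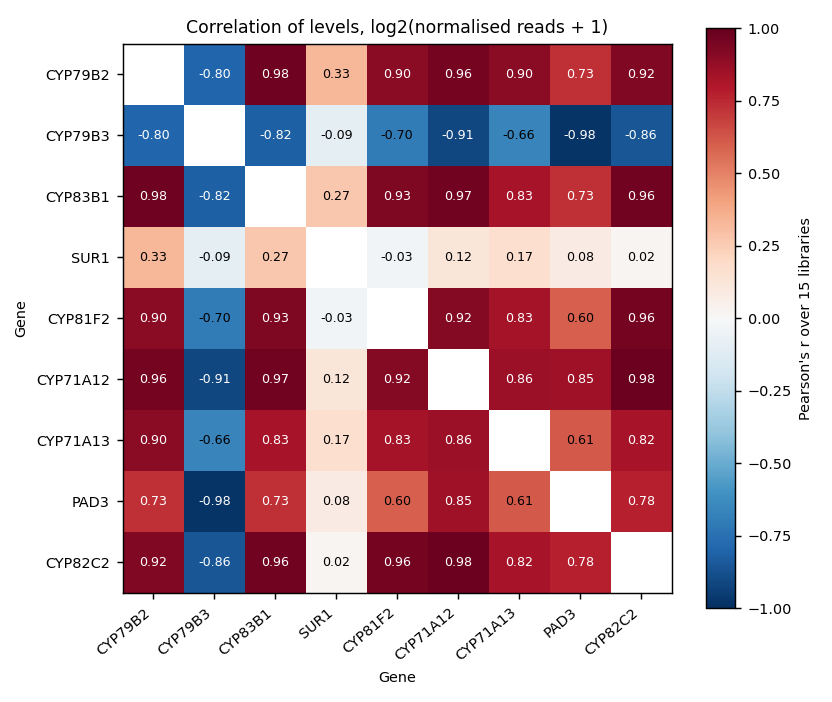
Pearson's r between the log2(normalised reads + 1) levels of each pair of the 9 genes over 15 libraries, on a colour scale from -1 to 1. The CYP79B3 row is negative throughout, from -0.98 with PAD3 to -0.09 with SUR1, and the SUR1 row is near 0 to 0.33.

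Among all genes tested, the pattern most like CYP79B2 was that of 4CL1, a ligase of phenylpropanoid metabolism (r = 0.997), followed by TRP1 (the same locus as PAT1, AT5G17990), an enzyme of tryptophan synthesis (r = 0.994). Closest to CYP83B1 was 4CL5 (r = 0.998), to CYP81F2 HIR2 (r = 0.999), to CYP71A12 UGT87A2 (r = 0.998) and to CYP82C2 the locus AT4G25900 (r = 0.997). Closest to CYP79B3 was the locus AT1G73480 (r = 0.995), to PAD3 ESM1 (r = 0.986), to SUR1 the locus AT4G38080 (r = 0.982) and to CYP71A13 the locus AT4G31355 (r = 0.959). Each is over the same 15 libraries.

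Library totals differed by group, from 44049333 to 44633457 normalised reads over the wild-type libraries and 45887436 to 46402162 in wrky-qm. They were 48769529 to 49323667 in obe1-2 and 49382960 to 49934976 in wrky-qm_15_hz. The bearing of these totals on small changes was not tested beyond the alternative scalings. Genes that mark other tissues moved with the mutants as well. The summed level of 5 chloroplast and leaf genes was 1116680 to 1387380 over the wild-type libraries, 1147900 to 1225270 in wrky-qm, 623804 to 695356 in wrky-qm_15_hz and 389920 to 420220 in obe1-2, and all 5 were lower in both latter groups. Of 6 root genes, 5 were lower in wrky-qm (3 without wrky-qm replicate 2 or 3), 5 in wrky-qm_15_hz and 4 in obe1-2, while 1, SCR, was higher in both of the latter, with sums of 5374 to 5858 in wild type and 2994 to 4131 over the mutants. The 5 seed storage genes summed to 8901 to 9281 in wrky-qm and 31890.3 to 34466 in wrky-qm_15_hz, against 13.5 to 462 in wild type, where 4 of 5 were at 0 in Col-0_1 and 2 of 5 in Col-0_2. In obe1-2 they summed to 59.9 to 90.7, with 1 of 5 at 0. The 3 touch-induced genes summed to 1408 to 1487 in Col-0_1, 3941 to 4211 in Col-0_2 and 10354 to 19394 over the mutants. The part of these shifts in the enzyme results was not tested.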

How the data were processed

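TRIzol RNA was read in pairs of 150 bp on a NovaSeq instrument, per the labels. Tools that the authors named in the submitters' processing notes are HISAT2, bcl2fastq and edgeR, with TAIR10 as the build. What each did, its version, the strandedness and the annotation are not given in the sources used here. Reads of overlapping or antisense genes cannot be told apart. The deposited table holds a signal per gene and library that the authors normalised, and no source states its unit. The authors' values have the form of edgeR pseudo-counts, called normalised reads here. Pseudo-counts are adjusted inside each group, which can change how replicates vary. Whole reads could not be recovered, and the count test planned for raw counts was not used.

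Values under 1e-06 were treated as 0, taken as log2(value + 1) and kept where some group's mean reached 1 (25085 of 32548 genes; 6167 were at 0 in every library). That scale understates the change of low genes. A limma-trend model (limma 3.58.1, R 4.3.3) was fitted to all 15 libraries in 5 groups. For a mutant against wild type, the larger p of both wild-type contrasts, or 1 where their directions differed, was adjusted by Benjamini-Hochberg over all genes tested, and fold changes are against the mean of both sets. Mutants were compared directly. Ratios of means are on the linear scale. The fit was tested on simulated data, whose effect sizes were enlarged and pass mark reset after a first run missed its mark, so small differences may be missed. Genes, positions and sequences were matched by locus to RefSeq TAIR10.1 (motifs and identities in Python 3.11.15 with Biopython 1.88), whose name differs from that of the TAIR10 build named by the authors. The deposited table gives no coordinates.

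Named genes were the 9 members, up to 3 called genes of largest change per list and mutant, paralogues, mutated genes, WRKY33 and the genes of highest correlation with a member. The members and lists were chosen with earlier results of these data known. Replicate numbers, given in the labels, did not pair libraries: 30 correlations of same-numbered deviations over 18780 genes ran from -0.098 to 0.050. Alternatives covered the pseudocount (0.5 and 5), the filter (none, or a mean of at least 10), scaling, controls, the libraries fitted, the replicate block and each library left out.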

Additional observations from a re-analysis of the deposited data

Results flagged for a closer look

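In 4 genes the wrky-qm libraries differed in opposite directions from the 2 wild-type sets, and the sets differed from each other when tested directly by limma. For CYP79B2 the log2 fold change was -0.22 against Col-0_1 and 0.14 against Col-0_2, and Col-0_2 differed from Col-0_1 by -0.36 (adjusted p = 3.85e-06). CYP83B1 gave 0.23 and -0.21, with a difference between the sets of 0.44 (adjusted p = 2.87e-09). CYP71A13 gave -0.86 and 2.33, with a difference of -3.18 (adjusted p = 0.000175). CYP82C2 gave 1.04 and -1.29, with a difference of 2.33 (adjusted p = 0.000216), from levels between 0 and 8.11 normalised reads in these groups. Because Col-0_1 is at 0, these sizes depend on the pseudocount and are not to be read as folds. Over the alternatives the difference between the sets ran from 0.89 to 3.16 (largest limma adjusted p = 0.043).

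Zeros are stored in a similar manner in Col-0_1 and wrky-qm, where 8177 and 7949 values per library are tiny positive numbers. These libraries also hold 1216 to 1292 exact zeros each, apart from wrky-qm replicate 2, which holds none. Col-0_2, wrky-qm_15_hz and obe1-2 have exact zeros and no tiny positive values. The bearing of this on the results was not tested.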

How the results depend on the processing

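Of 1530 alternative values for 63 results on the 9 enzymes, 1504 kept their direction and their side of the threshold. In the same direction 16 came to pass it and none ceased to pass it, and 10 reversed. One reversal concerned a called result, SUR1 in obe1-2 at -0.041 under quantile normalisation. The others were in results not called in the main fit. In wrky-qm CYP71A13 was -0.86 and CYP82C2 1.04 against Col-0_1 alone, and CYP79B2 was 0.14 and CYP83B1 -0.21 against Col-0_2 alone. These values of CYP79B2 and CYP83B1 passed the threshold (limma adjusted p = 0.0193 and 3.20e-05). Against Col-0_1 alone both genes were called in the opposite direction. CYP83B1 was also -0.020 under quantile normalisation and -0.025 under median-ratio scaling. CYP82C2 in wrky-qm ranged from -0.40 to 0.40 as single libraries were left out, reaching 0.40 without wrky-qm replicate 3 and 0.0915 without Col-0_2 replicate 2. PAD3 in obe1-2 against wrky-qm_15_hz ranged from -0.12 to 0.0018, the latter without obe1-2 replicate 1. Members called in wrky-qm numbered 7 against Col-0_1 alone and 8 against Col-0_2 alone, where both sets gave 4, and all genes called there numbered 10126, 10549 and, against the mean of both, 11058, where both sets gave 6743. CYP71A13 and CYP82C2 in obe1-2 against wrky-qm_15_hz came to be called with a pseudocount of 5 or on their own libraries, the former also without Col-0_2 replicate 1 or 3 and the latter without wrky-qm replicate 3 or Col-0_2 replicate 2. CYP71A12 was called between the wild-type sets without Col-0_1 replicate 1. Quantile normalisation moved the share of calls that were higher in wrky-qm from 57.6% to 42.4% and the median of all genes in obe1-2 against wrky-qm by 0.14 on the log2 scale. The replicate block gave 4, 9 and 9 members called against wild type in wrky-qm, wrky-qm_15_hz and obe1-2 and changed no call of a member. With it, all genes called numbered 6636, 13468 and 15444, where the fit without it gave 6743, 13541 and 15480. The cause of these differences was not tested. Depth per raw library is unknown, so levels near 0, as in CYP71A13 and CYP82C2 in wild type, carry no interval for counting error.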
